A study of Mus musculus with 1989 samples.

Results

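Histone genes were described in mouse thymocytes as the genes of the single-cell RNA-seq (scRNA-seq) table whose symbols begin with Hist1, Hist2, Hist3, Hist4, H2af, H3f or H1f, which gave 60 of 8846 genes. Of these, 51 were replication-dependent genes (Hist1, Hist2, Hist3 and Hist4) and 9 were variant genes (H2af, H3f and H1f). Their levels were compared between cycling cells, defined as cells with both Mki67 and Top2a above 0, and all other cells, called the rest. Mki67 encodes the Ki-67 proliferation antigen and Top2a a topoisomerase of dividing cells, and neither is a histone gene.

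Thymocytes came from thymi of C57BL/6 mice, an inbred laboratory strain without a transgene, labelled as male and 7 weeks old, and no treatment was given. The 1993 cells of the droplet scRNA-seq library were not sorted, and the experiment asks how gene expression changes as thymocytes pass through the double-positive (DP) stage. A second set of cells was profiled by single-cell ATAC-seq (scATAC-seq), of which the 542 cells that carried a DN, DP, CD4 or CD8 sort label were used. No animal is named for any cell, so the library and each sort counted as 1 sample. No test between groups was therefore possible, and every difference given here is between cells of these samples only. Intervals are 95% intervals that cover counting error only, and SDs are spreads over cells.

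Histones are the proteins around which DNA is wound in nucleosomes, with H2A, H2B, H3 and H4 in the core and H1 on the linker DNA. Replication-dependent histone genes lie in clusters and are switched on when DNA is copied, and their mRNAs usually end in a conserved stem-loop in place of a poly(A) tail. Variant histones such as H2A.Z and H3.3 are made from polyadenylated mRNAs through the whole cell cycle and are placed into chromatin outside replication. In the thymus, cells divide in bursts before and after they gain both coreceptors, as immature single-positive (ISP) cells and DP blasts (DPbla), and then stop to rearrange the T cell receptor alpha chain (DPre) and to be selected (DPsel).

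The stem-loop was searched for in GENCODE vM21 gene models on GRCm38, since the droplet kit captures RNA by its poly(A) tail and the 3′ end of a histone mRNA therefore bears on what such a library can hold. It was found 21 to 58 bases after the stop codon in 49 of 51 replication-dependent genes, and in 1 of 9 variant genes, H2afx, which encodes H2A.X, the variant that is phosphorylated at DNA breaks. The 2 replication-dependent genes without it were Hist2h2be and Hist1h2an. The 16 bases of the stem-loop are in capitals below with 5 bases on each side, all after the stop codon and written 5′ to 3′ on the gene's strand. The annotated Hist1h2ap gene ends 3 bases past its stem-loop, so the last bases printed for it lie beyond the gene model. They are shown for the replication-dependent gene most often found in these cells (Hist1h2ap, chr13:21833024-21833049, minus strand), an H3 gene and an H4 gene that were higher in cycling cells (Hist1h3c, chr13:23745042-23745067, minus strand, and Hist1h4d, chr13:23581945-23581970, plus strand), a gene at a like level in both groups of cells (Hist1h2bc, chr13:23684642-23684667, plus strand) and H2afx (chr9:44335235-44335260, plus strand).
Hist1h2ap: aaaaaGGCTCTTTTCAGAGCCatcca
Hist1h3c: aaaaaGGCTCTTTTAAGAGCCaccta
Hist1h4d: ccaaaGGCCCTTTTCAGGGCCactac
Hist1h2bc: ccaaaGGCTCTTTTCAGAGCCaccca
H2afx: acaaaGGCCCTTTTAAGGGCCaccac

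The same 16 bases as in Hist1h2ap, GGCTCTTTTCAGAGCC, were found in 31 genes, among them Hist1h2bc. The stem of H2afx was that of the H4 genes with GGCCC in the first arm, and its loop was that of Hist1h3c. The annotated end of the gene lay over 100 bases past the stem-loop in 21 of the 49 genes and in H2afx, whose model ran 822 bases beyond it. A polyadenylation signal (AATAAA or ATTAAA) stood in the last 50 bases of 12 of 51 replication-dependent genes and of 7 of 9 variant genes. Replication-dependent genes were on chromosome 13 (43 genes, between 21715763 and 23764406), chromosome 3 (5 genes), chromosome 11 (2 genes) and chromosome 6 (1 gene).

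Promoters were matched by symbol to RefSeq for 54 of 60 members (250 bases before to 50 after the start, GRCm38.p6). CCAAT, on either strand, stood in 84.8% of 46 replication-dependent promoters, 62.5% of 8 variant promoters and 37.9% of all 27025 promoters. TATAAA, on either strand, stood in 56.5%, 12.5% and 14.2% of them. The E2F letters TTTGGCG or TTTCCCG were found in 0 of 46 replication-dependent promoters, in 1 of 8 variant promoters (H2afj) and in 4.98% of all promoters, which says only which letters are in these windows. The bases before the start are printed for the most often found replication-dependent gene, Hist1h2ap (chr13:21833508-21833725, minus strand, 218 bases), and for the variant gene H2afz (chr3:137864237-137864486, plus strand, 250 bases), with CCAAT or its complement ATTGG in capitals. The Hist1h2ap window held 3 of these and the H2afz window 2.
Hist1h2ap: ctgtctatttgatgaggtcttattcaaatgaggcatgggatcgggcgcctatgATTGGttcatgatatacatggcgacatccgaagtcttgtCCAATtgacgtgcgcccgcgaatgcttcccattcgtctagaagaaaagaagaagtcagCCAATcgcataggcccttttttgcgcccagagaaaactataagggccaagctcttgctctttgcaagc
H2afz: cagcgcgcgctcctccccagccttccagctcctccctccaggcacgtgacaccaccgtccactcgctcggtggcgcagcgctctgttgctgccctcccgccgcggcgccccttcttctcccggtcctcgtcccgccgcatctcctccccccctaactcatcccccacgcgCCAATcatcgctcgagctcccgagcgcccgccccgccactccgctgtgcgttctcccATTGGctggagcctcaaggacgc

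The scRNA-seq table holds log2 values after quantile normalization, and 79.7% of them were 0. Counts of molecules were not used here, so a stand-in was used: within each cell, the distinct values were put in order, and the place of a value in that order was its number of steps. Every cell was then reduced by random draws to 1300 steps, so that cells of unequal depth could be compared. Cycling cells were deeper, with a median of 5835.5 steps against 2100 in the rest. T cell markers fitted the label: Cd3d was above 0 in 98.2% of cells, Thy1 in 89.4%, Cd8a in 84.9% and Cd4 in 54.6%. Doublets were not called. Marker lists of other cell types were not higher in cycling cells: the 7 APC genes in the table summed to 0.897 thinned steps per cell against 1.82 in the rest (highest cell 61 and 101), the 5 B cell genes to 0.81 against 0.993, the 4 macrophage genes to 0.258 against 0.418 without Adgre1 and Csf1r, the 8 genes of nonconventional lymphocytes (NCL) to 0.638 against 1.06, and the 2 erythroid genes to 0.0133 against 0.0481.

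Cycling cells held 6.55 times as many replication-dependent histone steps as the rest (interval 6.23 to 6.89), and 1.76 times as many variant steps (1.72 to 1.8). Mitochondrial genes took a mean of 3.26% of thinned steps in cycling cells and 4.33% in the rest, and the part of this difference in the result was not tested. The 51 replication-dependent genes summed to 9.73 ± 6.24 thinned steps per cell in the 600 cycling cells (lowest 0, median 10, highest 26) and to 1.49 ± 2.36 in the rest (lowest 0, median 1, highest 21). The 9 variant genes summed to 23 ± 7.16 (3, 22 and 45) and 13.1 ± 4.71 (2, 13 and 36). The ranges of single cells overlapped in both sums, while the middle of each distribution was shifted. In cycling cells the replication-dependent sum ran from a lower quartile of 3 to an upper quartile of 15, so that a part of these cells was at the level of the rest. Without thinning, the ratios were 13.5 and 4.24. Steps rank high genes too low, and the part of this in the gap between the replication-dependent and variant ratios was not tested.

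**Figure D1:**
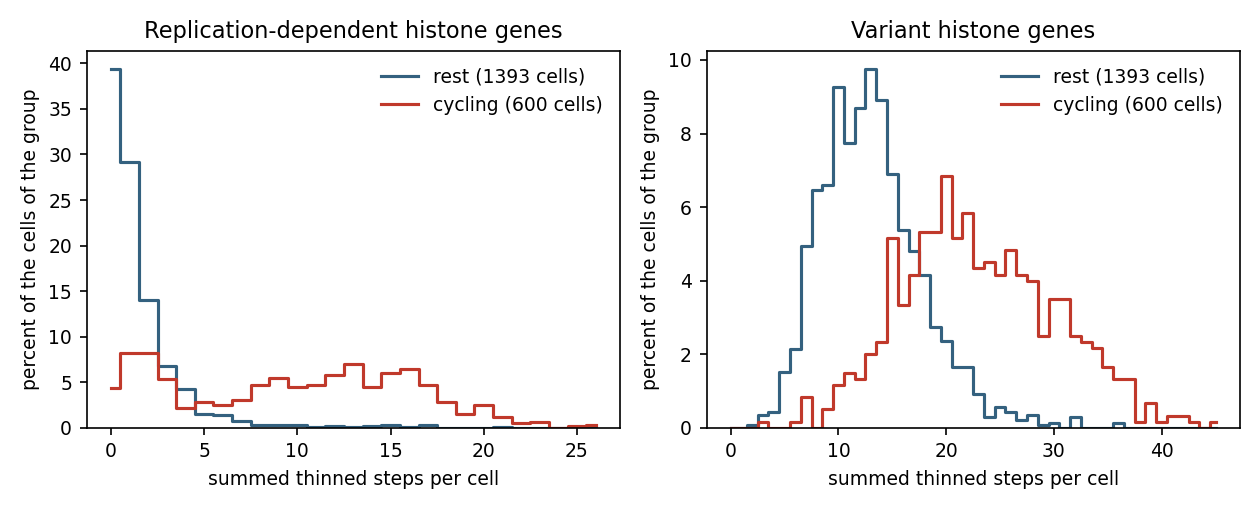
Percent of cells (vertical axis) by summed thinned steps per cell (horizontal axis) for 600 cycling cells and the rest, with replication-dependent genes on the left and variant genes on the right. The replication-dependent sum of the rest piles up at 0 and 1, while that of cycling cells is spread from 0 to 26, and the variant sums overlap around medians of 13 and 22.

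Both genes of the rule went with higher replication-dependent levels when they were found together. Cells with Mki67 alone held 1.48 replication-dependent steps (1.27 to 1.7, 126 cells), cells with Top2a alone 2.66 (2.48 to 2.85, 303 cells) and cells with neither 1.12 (1.05 to 1.19, 964 cells), beside 9.73 (9.48 to 9.98) with both. Variant steps were 13.7, 14.9, 12.5 and 23 in the same order. Cells with 1 of the 2 genes therefore stood closer to cells with neither than to cells with both, at median depths of 2320.5 (Mki67 alone), 2758 (Top2a alone), 2003 (neither) and 5835.5 steps (both), and the part of depth in this was not tested beyond the thinning. Of the rest, 27 cells (1.94%) reached the cycling median of 10 replication-dependent steps, of which 23 had Top2a above 0 and 23 were in clusters named ISP-like or DPbla-like below. With the 174 cells of these clusters taken out of the rest, the ratios were 9.01 and 1.88, an alternative chosen after the data were seen.

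A gene was called higher or lower where its mean thinned steps per cell differed by at least 2 times, among genes found in at least 20 cells after thinning. Of 8396 genes, 6.88% were higher and 13% lower in cycling cells. Of the 47 members tested, 36 were higher, 0 lower and 11 neither, and 13 members were under the minimum. The count of higher members was 60 of 60 tested without thinning, where 65.5% of all genes were higher. It was 18 of 25 in cells of overlapping depth, beside 7.22% of all genes, and 12 of 21 with a minimum of 100 cells, beside 5.94%. Replication-dependent genes were higher in 32 of 38 tested, with a median ratio of 6.13, and variant genes in 4 of 9, with a median of 1.26, beside a median of 0.877 over all genes. By histone, the summed ratio of the replication-dependent genes was 9.71 for H2A (7.2 against 0.742 steps), 6.87 for H3 (0.365 against 0.0531), 4.36 for H1 (0.717 against 0.164), 4.27 for H4 (0.657 against 0.154) and 2.12 for H2B (0.79 against 0.373). All 7 H3 and all 6 H4 genes tested were higher, as were 9 of 11 H2A, 6 of 9 H2B and 4 of 5 H1 genes. The members differ in sequence by little and can share reads, so a value of 1 copy is less certain than that of its class.

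Among H2A genes, Hist1h2ap, one of the copies of the core histone H2A, was found most often. Its log2 value was 4.49 ± 2.33 in cycling cells (lowest 0.00, median 5.59, highest 7.14) and 0.58 ± 1.08 in the rest (0.00, 0.00 and 7.14). The groups shared the same range, but most cycling cells were high and most other cells at 0. After thinning, 83.5% of cycling cells (80.3 to 86.4) and 25.8% of the rest (23.5 to 28.2) held it, at 5.77 against 0.516 steps per cell, a ratio of 11.2 (10.3 to 12.1). Its share was 6.06% (0.743 to 20.2) in the 33 APC-like cells of the rest, at a median of 2403 steps, and 20.3% in the cells of the rest outside ISP-like and DPbla-like clusters, at 2029 steps. Since free RNA can give such shares, a share near that of APC-like cells was not read as expression. Cd79a, Ms4a1 and Ebf1, which are B cell genes, were among the leading genes of that cluster, and B cells were not among the classes scored. With Hist1h2ap left out, the replication-dependent ratio was 4.09 (3.82 to 4.37).

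The other H2A copies were found in fewer cells, at ratios from 1.43 to 20.7 among those named here. Hist1h2ae was held by 36.2% of cycling cells and 4.16% of the rest, with a ratio of 11.3 (8.59 to 14.9), and Hist1h2af by 12.5% and 0.718%, with 20.7 (10.7 to 44.6). The ratios of Hist1h2ak, Hist1h2an and Hist1h2ab were 12.8, 11.4 and 10.8, and those of Hist1h2ag and Hist1h2ac 7.97 and 5.63. Hist3h2a, a gene of the small chromosome 11 locus, was at 0.0967 and 0.0675 steps, a ratio of 1.43 (1.01 to 2.01), and was not called, while in cells of overlapping depth it was at 2.86 (1.26 to 7.09). These H2A genes of chromosome 13 other than Hist1h2ap were named through their share of cycling cells, so that they passed the fold is no result. They differed by unequal amounts: the interval of Hist1h2ac (3.71 to 8.72), of counting error only, lies below that of Hist1h2af.

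Among H2B genes, Hist1h2bm, Hist1h2bj and Hist1h2be were at ratios of 8.25, 7.14 and 5.14. These H2B genes were also named through their share of cycling cells, so that they passed the fold is no result. The gene model of Hist1h2be overlaps that of Hist1h1e on the same strand, so that reads of the pair may be mixed. Hist3h2ba and Hist1h2bc were not called. Hist3h2ba was held by 19.8% of cycling cells (16.7 to 23.3) and 15.4% of the rest (13.5 to 17.4), with a ratio of 1.38 (1.13 to 1.7), which was 2.31 (1.51 to 3.59) in cells of overlapping depth. Hist1h2bc was at 0.103 steps per cycling cell and 0.105 in the rest, a ratio of 0.986 (0.72 to 1.34), and its highest log2 value was 2.38 in cycling cells and 4.00 in the rest. Its ratio was 2.06 (1.73 to 2.46) without thinning and 0.808 to 1.23 in the other settings, each with an interval that takes in 1. Hist1h2bc has the same stem-loop as Hist1h2ap.

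Linker histone H1 genes differed among themselves. Hist1h1b, which encodes H1.5, was held by 25.5% of cycling cells and 2.66% of the rest, with a ratio of 11.1 (7.89 to 16.1). Hist1h1e (H1.4) was at 7.17 (4.83 to 10.9) and Hist1h1d (H1.3) at 4.41 (2.5 to 8). These H1 genes were named through their share of cycling cells, so that they passed the fold is no result. Hist1h1c (H1.2), which either group would have named, was at 1.3 (0.956 to 1.76), held by 10.8% and 7.61% of cells. Its interval, of counting error only, does not overlap that of Hist1h1b. Among the H3 and H4 genes, Hist1h3c (13.1), Hist1h3d (9.71), Hist1h4d (6.76) and Hist1h4i (3.45) were held by enough cells to be given singly. All but Hist1h4i were named through their share of cycling cells alone, so that they passed the fold is no result. Hist1h4i was found in 6.75% of the rest, the highest share among the H3 and H4 genes named.

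The 16 tested members found in under 5% of both groups had ratios of 1.04 to 9.75, and 14 of them were higher. The 13 members under the minimum were found in 32 to 83 cells each before thinning, and their ratios ran from 2.32 to 16.3 on few steps. The 6 tested replication-dependent genes that were not called (Hist3h2a, Hist3h2ba, Hist1h1c, Hist1h2bc, Hist2h2be and Hist2h2aa1) summed to 0.615 ± 0.888 steps in cycling cells and 0.487 ± 0.966 in the rest, a ratio of 1.26 (1.11 to 1.44), although Hist3h2a and Hist3h2ba pass the fold at overlapping depth. The ends of their gene models were set beside those of the called genes. The annotated end lay over 100 bases past the stem-loop in 4 of the 5 that have one, against 12 of 31 called genes, and a polyadenylation signal stood at the end of 4 of 6, against 6 of 32 called genes. Hist3h2a and Hist3h2ba are among the 4 in both counts, so the contrast leans on genes whose call changed with depth. These are counts over few genes, with no test, and the part of the gene end in a call was not tested.

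**Figure D2:**
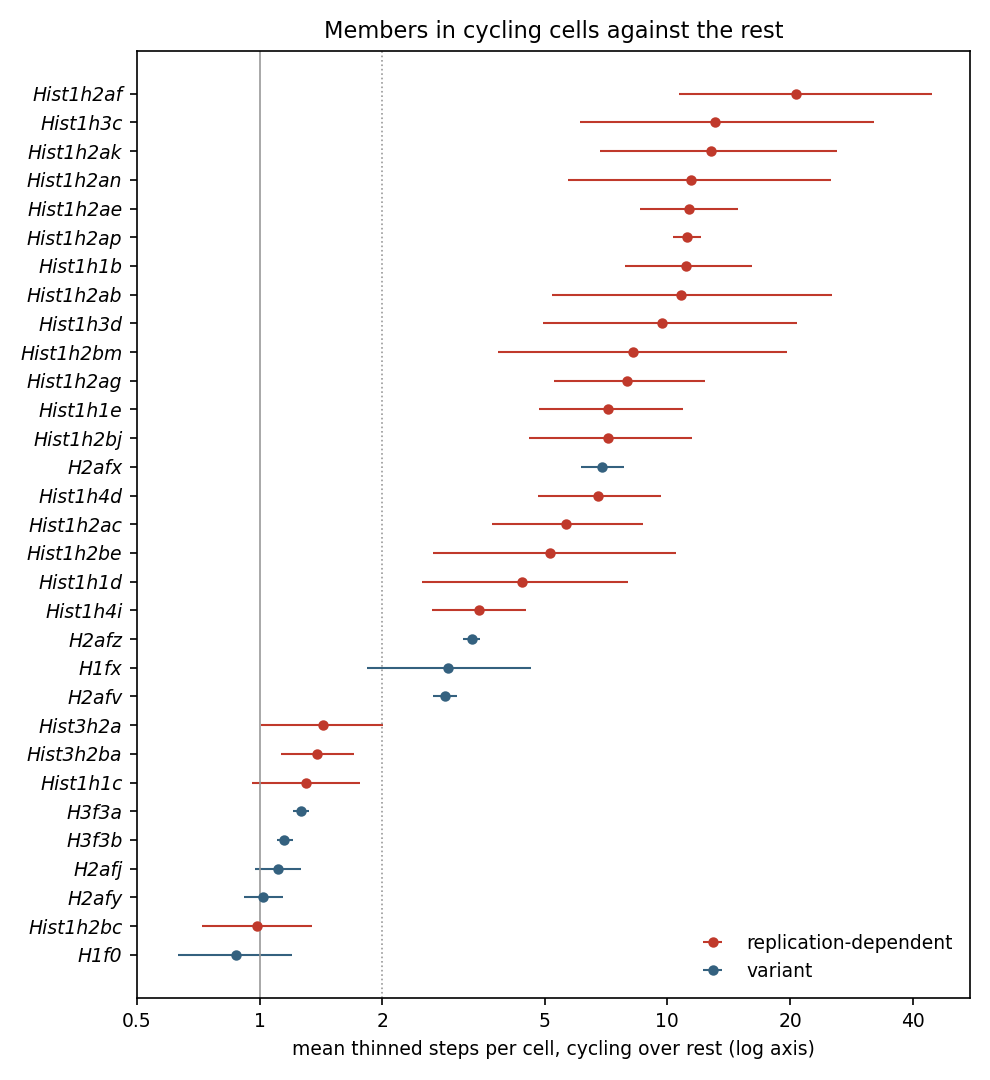
Ratio of mean thinned steps per cell, cycling over rest, on a log axis for the 31 members found in at least 5% of the cells of either group, with exact conditional 95% intervals, a solid line at 1 and a dotted line at 2. Replication-dependent genes run from 0.986 (Hist1h2bc) to 20.7 (Hist1h2af), and the variant genes from 0.875 (H1f0) to 6.93 (H2afx).

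Variant genes formed 2 sets by the fold. H2afx, H2afz, H2afv and H1fx were higher in cycling cells. H2afx had a log2 value of 2.13 ± 1.26 in cycling cells (0.00, 2.38 and 4.38) and 0.36 ± 0.62 in the rest (0.00, 0.00 and 3.79), and was at 1.81 against 0.261 steps, a ratio of 6.93 (6.15 to 7.83), with 68% and 21.3% of cells holding it. Its ratio was near the median of replication-dependent genes. H2afz and H2afv, which encode the H2A.Z proteins, were at 6.51 against 1.96 steps (3.31, 3.16 to 3.48) and 3.03 against 1.06 steps (2.85, 2.66 to 3.05). The log2 value of H2afz was 4.65 ± 0.78 in cycling cells (0.00, 4.84 and 5.82) and 2.01 ± 1.39 in the rest (0.00, 1.93 and 5.59). That of H2afv was 3.12 ± 0.77 and 1.34 ± 1.06. H2afz was held by 98.7% of cycling cells and 74.2% of the rest, so the difference was in level more than in the share of cells. H1fx, a linker variant, was rare, at 5.33% and 2.15% of cells and a ratio of 2.9 (1.83 to 4.63). It was named through its share of cycling cells, so that it passed the fold is no result.

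H3f3a and H3f3b, both of which encode the replacement histone H3.3, were found in nearly every cell. The log2 value of H3f3a was 4.14 ± 0.46 in cycling cells (1.44, 4.20 and 5.59) and 3.54 ± 0.78 in the rest (0.00, 3.66 and 5.82). That of H3f3b was 3.97 ± 0.61 (0.93, 4.04 and 5.82) and 3.56 ± 0.78 (0.00, 3.63 and 5.42). The groups overlapped over almost their whole range. On thinned steps the ratio was 1.26 (1.21 to 1.32) for H3f3a and 1.15 (1.1 to 1.21) for H3f3b. H2afj (1.11, and 0.899 at overlapping depth), H2afy, which encodes macroH2A1 (1.02, and 0.804 at overlapping depth), and H1f0, the H1.0 linker histone of resting cells (0.875, 0.629 to 1.2, and 1.11 with another random draw), were also within the fold. Without H2afx, H2afz and H2afv, the 6 other variant genes summed to 11.7 ± 3.97 against 9.81 ± 3.43 steps, a ratio of 1.19 (1.16 to 1.23).

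Within cycling cells, histone levels were set against the cell cycle, by splitting the cells where the score of S-phase genes equals that of G2/M genes. The S side and the G2/M side had 300 cells each, at medians of 6110.5 and 5598.5 steps, and 89 cells were within 0.1 of equal scores. Of 5539 genes, 5.67% were higher and 5.06% lower on the S side. Of 39 members tested, 1 was higher and 6 were lower. The lower count was 9 of 29 for outer score groups and 3 of 60 without thinning. It was 8 of 37 without the 5% of cells with the most genes and 11 of 42 with Mki67 or Top2a as the rule. The share of all genes that were lower was not taken in these other settings. The replication-dependent sum was 8.4 ± 5.72 steps on the S side (0, 9 and 21) and 11.1 ± 6.47 on the G2/M side (0, 12 and 26), a ratio of 0.759 (0.721 to 0.8). The variant sum was 20.3 ± 6.37 and 25.7 ± 6.88 steps, a ratio of 0.79 (0.764 to 0.817). Both sums were thus higher on the G2/M side, with wide overlap of single cells.

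Of the members lower on the S side, H2afx was the one held by most cells, at 0.99 steps on the S side and 2.63 on the G2/M side (0.376, 0.328 to 0.43). Hist3h2ba (0.325, 0.219 to 0.472), Hist1h1d (0.31), Hist1h2ab (0.355), Hist1h2af (0.483) and Hist2h2ac (0.474) were lower on the S side as well. H1fx was the member higher there, at 2.75 (1.38 to 5.85). It was at 2 (0.853 to 5.05) for outer score groups, where it was found in 19 cells and so was under the minimum, 1.84 (1.39 to 2.44) without thinning and 1.62 (0.904 to 3.01) with Mki67 or Top2a as the rule, and 0 members were called higher in each of these settings. H2afv was at 0.56 (0.508 to 0.616), while H2afz was at 0.899 (0.844 to 0.958) and Hist1h2ap at 0.786 (0.735 to 0.841). The H2A.Z genes thus differed by unequal amounts, and their intervals, which leave out the spread over cells, do not overlap.

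Cut into 5 groups of 120 cells from the highest S score to the highest G2/M score, the replication-dependent sum was 8.09, 8.38, 9.02, 11.6 and 11.5 steps per cell. The variant sum was 19.2, 20.5, 23.1, 24.7 and 27.5, and H2afx alone was 0.658, 1.12, 1.75, 2.38 and 3.16. Slbp, which encodes the protein that binds the stem-loop, was at 1.32, 0.95, 0.617, 0.725 and 0.233, but it is one of the S genes that put the cells in this order, so its course is given only to show the order. No member is among the genes of either score. A score ranks the cells and does not time them.

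**Figure D3:**
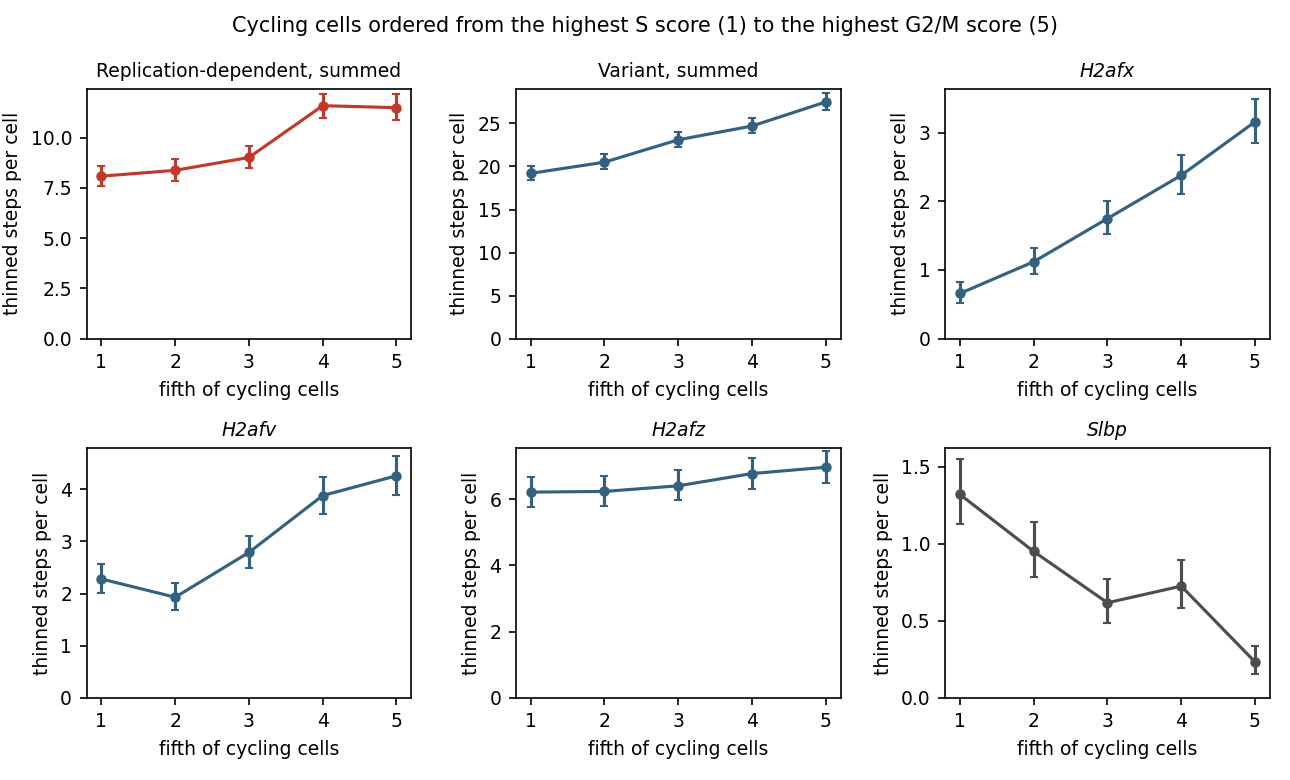
Mean thinned steps per cell (vertical axis) in 5 groups of 120 cycling cells ordered from the highest S score (1) to the highest G2/M score (5), with exact Poisson 95% intervals. The sums and H2afx are higher toward 5, where H2afx reaches 3.16, and Slbp, one of the genes that set the order, is at 0.233 there.

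Cells were then placed in clusters built without the members, Mki67 and Top2a, and 17 clusters were named from marker lists. The ISP list holds Mki67 and the DPbla list holds Mki67 and Top2a, so the names, unlike the clusters, used the genes of the cycling rule. ISP-like and DPbla-like clusters held 549 of 600 cycling cells (91.5%), which is a description, since these names were kept for clusters with Mki67 in 50% or more of their cells. The replication-dependent sum over all cells of a cluster was 15.4 and 14.2 steps in DPbla-like clusters 9 and 3, 8.97, 6.04 and 3.93 in ISP-like clusters 14, 5 and 8, and 6.88 and 2.89 in DPbla-like clusters 11 and 12. It was 2.03 and 1.48 in the DPre-like clusters, 1.7 in the DN-like cluster, and 0.521 to 1.07 in DPsel-like, CD4sp-like, CD8sp-like, NCL-like and APC-like clusters. The variant sum ran from 9.74 in the NCL-like cluster to 28.8 in cluster 9. The names of clusters 5, 14 and 13 were close calls, with a leading score of 0.339 against 0.24, 0.769 against 0.668 and 0.378 against 0.28 for the next class.

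**Figure D4:**
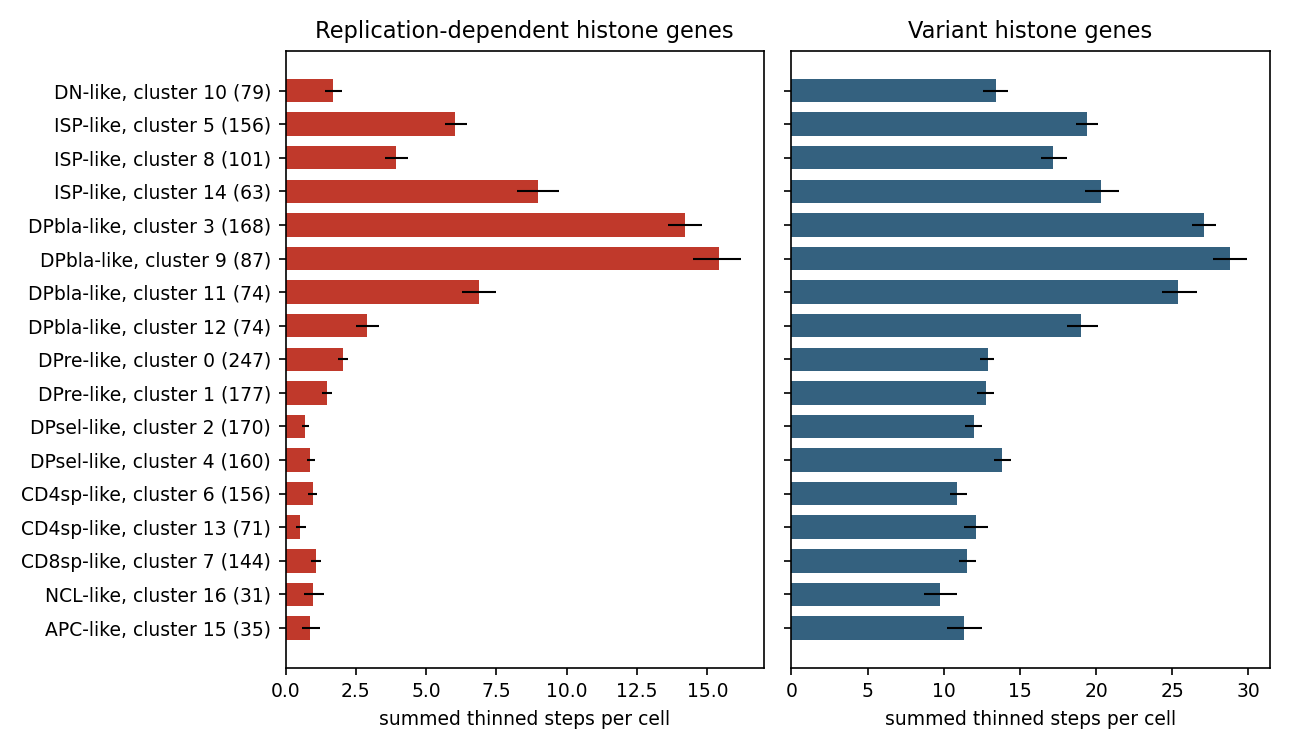
Summed thinned steps per cell (horizontal axes, bars from 0) in each of 17 clusters, with the number of cells in parentheses and exact Poisson 95% intervals. Replication-dependent genes, on the left, stand between 0.521 and 15.4, and variant genes, on the right, between 9.74 and 28.8.

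The 4 DPbla-like clusters differed in what they held, and cluster 12 had the lowest DPbla score of them (0.333). It had Mki67 in 56.8% of its cells, near the 50% that the name needs, and 46 of its 74 cells did not meet the cycling rule. With all variable genes in the clusters, a cluster of 121 cells led by several of the same genes, Hist1h2bc among them, was named DPre-like. Differences from cluster 12 may therefore not be differences among blasts. Cluster 9 against cluster 11 had 2.23 times the replication-dependent steps (2.01 to 2.48) but 1.13 times the variant steps (1.07 to 1.2), at G2/M list sums of 50.5 and 50.3 and S list sums of 7.98 and 3.3 (2.42, 2.09 to 2.81). Hist1h2ap (2.4), Hist1h1b (4.25) and Hist1h2ae (2.55) were higher in cluster 9, as was Slbp at 0.529 against 0.122 steps, while H2afx was at 1.19 (0.996 to 1.43). The replication-dependent genes thus differed between these clusters by about as much as the S list did. Against cluster 12, cluster 9 had 5.31 times the replication-dependent steps and 11.6 times the H2afx steps, with H2afz at 1.17 and Hist1h2bc at 0.284. These pairs were chosen after their values were seen.

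Among cycling cells, 217 ISP-like and 332 DPbla-like cells were compared, at medians of 8177 and 5181.5 steps. Of the ISP-like cells, 102 were in cluster 5 and 62 in cluster 14, whose names were close calls. Cluster 5 was led by S-phase genes such as Ccne2, Ung and Hells, while the DPbla list holds the G2/M genes Cdk1 and Hmgb2. The comparison of stages thus overlaps that of cycle phases, and the part of phase in it was not tested. Of 5215 genes, 6.02% were higher and 6.79% lower in ISP-like cells, and of 37 members 0 were higher and 13 lower. The replication-dependent sum was 7.15 against 12.2 steps, a ratio of 0.586 (0.553 to 0.622), and the variant sum 19.5 against 26.6, a ratio of 0.735. Without thinning these ratios were 0.966 and 1.14, so the order of the replication-dependent sums was kept at a smaller difference and that of the variant sums turned. The 13 lower members were 12 replication-dependent genes and H2afx, which was at 1.01 against 2.49 steps (0.407, 0.349 to 0.472). Hist1h2bk (0.229), Hist3h2ba (0.247) and Hist1h2ak (0.294) had the lowest ratios. H2afj was above 1, at 1.42 (1.14 to 1.78), and so were H2afy at 1.1 (0.897 to 1.35) and Hist1h3a at 1.31 (0.554 to 3.05), whose intervals take in 1.

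Among cells that did not meet the cycling rule, 673 cells of the DPsel-like, CD8sp-like and CD4sp-like clusters were set against 417 DPre-like cells. DPre is the stage just after the blasts. Cells with Mki67 or Top2a alone were kept in both groups. Of 7429 genes, 9.53% were higher and 7.56% lower in the later cells, and of 18 members tested 0 were higher and 9 lower, 8 of them among 10 replication-dependent genes. The replication-dependent sum was 0.685 ± 0.998 steps against 1.78 ± 1.85, a ratio of 0.385 (0.342 to 0.434). The variant sum was 12 ± 3.74 against 12.8 ± 3.93, a ratio of 0.938 (0.906 to 0.971), and 1.03 without thinning. By histone, the replication-dependent sums had ratios of 0.353 for H1, 0.443 for H2A, 0.269 for H2B and 0.485 for H4. H3 was at 1.24, with an interval that takes in 1 (0.596 to 2.72), and at 0.751 without thinning. The other 41 replication-dependent genes were found in too few of these cells to be tested.

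Of the 6 replication-dependent genes not called in cycling cells, 4 were lower in the later cells. Hist1h2bc was held by 3.12% of the later cells and 10.1% of DPre-like cells (ratio 0.169, 0.099 to 0.277), Hist3h2ba by 10.1% and 28.5% (0.304, 0.227 to 0.403) and Hist1h1c by 4.46% and 12.2% (0.351, 0.223 to 0.544). Hist3h2a was at 0.408, and the 6 uncalled genes together at 0.26 against 0.863 steps (0.301, 0.25 to 0.362). Hist2h2aa1 was not called (0.62, 0.255 to 1.51), and Hist2h2be, with 4 steps in the later cells and 14 in DPre-like cells, was under the minimum. Hist3h2ba was held by a larger share of DPre-like cells than the 19.8% of cycling cells. Of the variant genes, H1f0 was lower in the later cells at 0.394 (0.267 to 0.575), and H2afj was at 1.43 (1.19 to 1.71), under the fold. Hist1h2ap was at 0.416 (0.329 to 0.526), with 14.1% and 32.1% of cells holding it.

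The genes that make, process and carry histones were given by list for the same comparison of cycling cells with the rest. Of 16 genes for histone gene transcription and 3′ processing, 2 were higher (Slbp at 0.77 against 0.223 steps, 3.46, and Cstf2, a cleavage factor, at 2.06) and 0 lower, with a median of 1.29. Npat, the activator of histone gene transcription, was at 0.86, and Cstf2t was lowest at 0.572 (0.322 to 0.969). Of 13 replication-coupled chaperone genes, 8 were higher, with a median of 2.14, led by Asf1b (8.32), which hands over new H3 and H4, and the CAF-1 subunit genes Chaf1a (5.69) and Chaf1b (2.4). The FACT genes Supt16 and Ssrp1 were at 2.39 and 2.24, and Tonsl was lowest at 0.822.

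Of 20 tested genes for chaperones of variant and other histones, 7 were higher, with a median of 1.04. They included Cenpa, the H3 variant of centromeres, which lies outside the member rule (3.74), the importin gene Ipo9 (2.67), Anp32e, which removes H2A.Z (2.65), Hira, a carrier of H3.3 (2.49) and Nap1l1 (2.23). Cabin1 was lowest at 0.608 (0.426 to 0.852). The lists of the cycle itself stood higher, with 35 of 42 S-phase genes (median 3.39, led by E2f8 at 9.19, Clspn at 8.21 and Rad51ap1 at 7.72) and 47 of 52 G2/M genes (median 5.6, led by Ttk at 21.4, Bub1 at 12.3 and Ndc80 at 10.6). Mki67 and Top2a were left out of both cycle lists, which share Slbp, Casp8ap2, Nasp and Chaf1b (S phase) and Anp32e, Hjurp and Cenpa (G2/M) with the lists above.

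Over the 600 cycling cells, the genes outside the member list whose thinned steps went most with the replication-dependent sum were Top2a (Spearman rho 0.47), Ube2s (0.43), Tuba1b (0.43), Nusap1 (0.41), Cdkn2c (0.41), Birc5 (0.38), Spc25 (0.37) and Pclaf (0.35), of 2417 genes compared. These cells share 1 library, and Top2a had been used to choose them. Among members, set against the sum of the other replication-dependent genes, Hist1h2ap was at 0.59, H2afx at 0.46, H3f3b at 0.42 and Hist1h2ae at 0.37. H3f3a was at 0.18, and Hist1h2bc at -0.08. The 2 H3.3 genes thus stood apart in this measure, although their ratios between cycling cells and the rest were alike.

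Open chromatin at the members was measured in 182 DN, 125 DP, 119 CD4 and 116 CD8 sorted cells, as counts in 138317 peaks of 4000 bp. All 60 members had a peak over the start, 199 peaks in all, and 35 replication-dependent members shared a peak with another. These peaks held 34.9 of every 10000 counts in DN, 31.1 in DP, 27.1 in CD4 and 29.4 in CD8 cells. In the 39 peaks that do not overlap, DN cells had 30.3, DP cells 26.9 and single-positive cells 23.8 per 10000, a ratio of DN to single-positive cells of 1.27 (1.19 to 1.36), of DN to DP cells of 1.12 (1.03 to 1.22) and of DP to single-positive cells of 1.13 (1.04 to 1.24). Over peaks at any protein-coding start, these ratios were 1.03 (1.02 to 1.03), 0.96 (0.954 to 0.966) and 1.07 (1.06 to 1.08). The value of DP to single-positive cells over all starts thus lay inside the interval of the members.

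A good part of the DN level at these peaks came from 1 cell at each peak, and the 2 cells were not the same. The Hist2h4 peak with the most counts held 221 counts in DN cells, 215 of them in 1 cell, and 1, 7 and 8 counts in DP, CD4 and CD8 cells. The peak of the H2A and H2B genes Hist2h2ac and Hist2h2be held 109 DN counts, 88 of them in 1 cell, and 5, 11 and 4 in the other sorts. Without the peaks over Hist2 genes, an alternative added after the data were seen, the ratio of DN to single-positive cells was 1.1 (1.02 to 1.18), that of DN to DP cells turned to 0.949 (0.869 to 1.04) and that of DP to single-positive cells was 1.15 (1.05 to 1.26). By the number series in the cell labels and with all peaks, the ratio of DN to single-positive cells was 1.16 (1.03 to 1.31) within series 4000 and 1.13 (0.911 to 1.39) within series 31000. That of DP to single-positive cells was 1.08 (0.964 to 1.21) and 0.952 (0.742 to 1.21), that of DN to DP cells 1.07 (0.929 to 1.24) and 1.18 (0.907 to 1.55), and that of CD4 to CD8 cells 0.88 (0.788 to 0.983) and 1.33 (0.961 to 1.89). CD4 cells alone held 21.5 per 10000 in series 4000 and 31.3 in series 31000. Over all members, the ratio of DN to single-positive cells was thus above 1 in each of these settings, with an interval that takes in 1 within series 31000, and the other ratios crossed 1 in at least 1 of them. For replication-dependent genes alone it was 1.12 (0.978 to 1.28) within series 4000 and 1.19 (0.933 to 1.51) within series 31000. For variant genes it was 1.35 (1.02 to 1.77) and 0.944 (0.598 to 1.46), so it did not stay above 1.

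By member, the H2afx peak with the most counts held 0.595, 0.418, 0.323 and 0.283 counts per 10000 in DN, DP, CD4 and CD8 cells, and that of H2afz 0.929, 0.857, 1.08 and 0.97. These levels rest on 66, 20, 18 and 14 counts for H2afx and on 103, 41, 60 and 48 counts for H2afz. No interval was taken for them, so no order of the sorts is drawn. The peak over the annotated start of H3f3b held 0 counts in 542 cells, which limits the share of cells with a count there to at most 0.554%. The RefSeq start of this gene lies 3458 bases away, where the peak with the most counts held 0.767, 0.669, 0.591 and 0.526 counts per 10000 in DN, DP, CD4 and CD8 cells, and it did not enter the sums. Of the 54 members with a RefSeq start, 2 had it over 1000 bases from the annotated one, H3f3b and Hist1h1d. The Hist2 and H3f3b peaks were picked after their values were seen.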

How the data were processed

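Thymocytes were profiled in 1 scRNA-seq library and in scATAC-seq cells. For scRNA-seq, the authors aligned reads with Cell Ranger (version 1.3.1 in the submitters' processing notes), dropped cells and genes of low quality, made the distribution of values equal between cells by quantile normalization, and deposited log2 values. For scATAC-seq, the authors mapped reads with Bowtie2, removed duplicates, called peaks on merged cells and deposited a matrix of raw counts, of which 1446 columns were not used here. Peak centers lay within 2 kb of a GRCm38 start for 22.5% of peaks and for 6.21% after a shift of 100000 bases, so GRCm38 was taken as the build.

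Steps were ranks among the distinct values of a cell. They rank high genes too low. Step totals were 1356 to 22539 per cell. Sums and ratios have exact Poisson and conditional binomial 95% intervals, shares exact binomial ones, and a share of 0 allows 3 counts. Clusters were made with Seurat 5.3.0 (1288 variable genes, 20 principal components, 30 neighbors, resolution 2), in R 4.3.3, and took the marker list of highest mean z score. The names ISP-like and DPbla-like were kept for clusters in which 50% or more of the cells had Mki67. Other steps used Python 3.11.15, numpy 2.4.6, scipy 1.17.1 and pandas 2.3.3, and were tested on simulated data. Members found in at least 5% of cycling cells or of the rest were named, and others given by counts. Of the other lists, the genes of largest and lowest ratio were named, and the 8 genes most like the replication-dependent sum. The members and lists were chosen with earlier results of these data known, and the phase genes were written from memory. Alternatives changed the cycling rule, thinning, depth, filters and clusters.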

Additional observations from a re-analysis of the deposited data

How the results depend on the processing

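No paired analysis was possible because the scRNA-seq cells form 1 library and each sort counts as 1 sample, although sorts share number series in their labels, within which values are given. A ratio was taken to move where it left the counting interval, and to turn where a sum or called member crossed 1. Of 58 alternatives to 9 results, 25 stayed, 32 moved and 1 turned, and of 311 alternatives to 39 other results, most of them single members, 226 stayed, 84 moved and 1 turned. With uncalled members counted, 12 of the 311 lay on the other side of 1, all of them of Hist1h2bc, H1f0, H2afy, H2afj or the ISP-like variant sum; without thinning, Hist1h2bc was at 2.06 and H1f0 at 2.4. The replication-dependent ratio of cycling cells to the rest (6.55) was 5.93 with Mki67 or Top2a, 5.58 with Mki67 alone as the rule, 5.3 with both above 1, 13.5 without thinning, 7.23 without the 5% of cells with the most genes, 6 at overlapping depth (204 and 250 cells), 4.09 without Hist1h2ap and 9.01 without ISP-like and DPbla-like cells in the rest, which was added after seeing the data. The variant ratio (1.76) was 1.56, 1.64, 4.24 without thinning, 1.81 without the 5% of cells with the most genes, 1.99 without its largest member and 1.88 under the added alternative. The count of 36 higher members was 60 without thinning, 18 at overlapping depth and 12 with a minimum of 100 cells. On the S side against the G2/M side, the replication-dependent ratio (0.759) was 0.699 for outer score groups, 0.832 without thinning and 0.542 with Mki67 or Top2a, and the variant ratio (0.79) was 0.748, 0.834 and 0.714. The 1 member higher on the S side was 0 under each of these. The variant ratio of the later cells to DPre-like cells (0.938) was 0.897 with all variable genes in the clusters and turned to 1.03 without thinning. The replication-dependent ratio of ISP-like to DPbla-like cells (0.586) was 0.533 with all variable genes and 0.966 without thinning, where the variant ratio turned to 1.14. The DN to single-positive ratio in open chromatin (1.27) was 1.16 and 1.13 within series and 1.1 without the Hist2 peaks. The median depth was 8177 steps in ISP-like and 5181.5 in DPbla-like cycling cells, and 2054 in the later and 1909 in DPre-like cells. The causes were not tested. Steps limit what can be seen of rare members: 13 were under the minimum.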
